A study of Mus musculus with 6 samples.

Results

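The genes described here are the switched immunoglobulin and plasma cell genes found in RNA of splenic CD4+ T cells. They are the 5 class-switched heavy-chain constant genes Igha, Ighg1, Ighg2b, Ighg2c and Ighg3, the kappa light-chain constant gene Igkc, and Jchain, Mzb1, Sdc1 and Tnfrsf17. They were chosen by name, and all 10 were found among 39171 Ensembl gene identifiers, with 1 row each. The library files give 4 of them by name. The other 6, all immunoglobulin constant genes, have no name there and were matched by identifier to GENCODE M21.

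AngII mice were C57BL/6 mice given angiotensin II, the peptide hormone that raises blood pressure, at 800 ng/kg/min. An osmotic minipump delivered it over 14 days, starting when the mice were 10 weeks old. Control mice were of the same strain and age and are labelled untreated over the same 14 days. The labels do not say whether they carried a pump. The submitters describe the mice as premenopausal, and each group had 3 mice with 1 library per mouse. CD4+ T cells were taken from spleen suspensions with a magnetic isolation kit and their RNA was sequenced in bulk, and the comparison asks what angiotensin II does to the transcripts of these cells.

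A B cell that meets antigen can change the constant region of its heavy chain from IgM to IgG, IgA or IgE, a process called class switching, and can mature into a plasma cell. Plasma cells fill their endoplasmic reticulum with antibody and secrete it, and the spleen holds many of them. These genes are known as markers of antibody-secreting cells and B cells, not of CD4+ T cells. In bulk RNA, fewer cells of a type and less RNA per cell cannot be told apart.

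The libraries carried the label of their cells. The 8 CD4 T cell markers, among them Cd4 and Cd3e, summed to between 2038 and 2208 FPKM (fragments scaled to transcript length and to library depth) in AngII libraries and between 2043 and 2380 FPKM in Control libraries, with AngII replicate 2 and Control replicate 3 the lowest of their groups. All genes of a library summed to 613674 FPKM at the least and to 717286 FPKM at the most, and the number of reads behind it is unknown, since the files hold no counts. The 10 genes together held 0.158, 0.432 and 0.208% of the summed FPKM in AngII replicates 1 to 3, against 0.232, 0.202 and 0.530% in Control replicates 1 to 3. AngII replicate 2 and Control replicate 3 stood above the other libraries of their groups for most of these genes, a pattern noticed after the values were seen, and values without both are given with the results.

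The 4 IgG genes are close copies of each other on mouse chromosome 12, which bears on how well short reads can be divided among them. Over the aligned coding bases of the shorter annotated transcripts, which encode the secreted form, Ighg2b and Ighg2c were 85.9% identical, while the other pairs of IgG genes were between 75.7 and 77.7% identical and Igha was at most 58.7% identical to any of them. The longest run without a difference between Ighg2b and Ighg2c was 78 bases, against at most 41 bases for any other pair. The third exon, coding for the second constant domain, is printed here for the 90 bases in which Ighg2b and Ighg2c are most alike, with Ighg3 for contrast. Capitals mark positions at which the 3 genes are not all the same. The sequences are from GENCODE M21 on GRCm38, minus strand, at chr12:113306975-113307064 for Ighg2b, chr12:113287975-113288064 for Ighg2c and chr12:113360251-113360340 for Ighg3.
Ighg2b: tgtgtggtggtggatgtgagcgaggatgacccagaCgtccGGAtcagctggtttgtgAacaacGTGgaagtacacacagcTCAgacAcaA
Ighg2c: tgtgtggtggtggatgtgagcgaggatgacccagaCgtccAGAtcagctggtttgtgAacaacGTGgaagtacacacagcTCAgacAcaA
Ighg3: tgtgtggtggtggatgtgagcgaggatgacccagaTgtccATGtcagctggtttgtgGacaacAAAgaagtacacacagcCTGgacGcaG
In this window Ighg2c differs from Ighg2b at 1 base and Ighg3 differs from it at 13 bases. The exon of Ighg1 has another length and is left out. The labels do not say how reads that fit several of these copies were counted, so the values of the IgG genes, and the split between Ighg2b and Ighg2c most of all, are uncertain.

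The level of the 10 genes spanned more than 3 orders of magnitude of FPKM, a scale that is per length and so allows genes to be compared. Over all 6 libraries, Igkc averaged 1565 FPKM, Jchain 112 FPKM, Igha 102 FPKM, Ighg2c 76.4 FPKM, Ighg2b 52.7 FPKM and Ighg1 26.0 FPKM. Ighg3 averaged 17.9 FPKM, Mzb1 8.92 FPKM, Sdc1 1.33 FPKM and Tnfrsf17 0.528 FPKM. Of the neighbours in this order, the ranges over the 6 libraries lay apart for Igkc and Jchain and for Mzb1 and Sdc1, and overlapped for the other pairs. Within each library, Ighg3 was above Mzb1 and Sdc1 above Tnfrsf17 in 6 of 6. Jchain was above Igha in 3 of 6.

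No gene of the group differed between AngII and Control beyond the spread between mice. Values were tested as log2(FPKM + 1) with limma, two-sided, over the 11842 genes whose mean FPKM reached 1. Of the 10 genes, 9 passed this filter, and 0 of 9 had a Benjamini-Hochberg adjusted p below 0.05, against 4 of 11842 genes tested (0.0338%). At an unadjusted p below 0.05 the counts were 0 of 9 and 208 of 11842 (1.76%). In none of the 10 genes did the 3 AngII values lie apart from the 3 Control values, where 5.84% of all genes tested had groups that did not overlap. The log2 fold change was negative for 8 of 9 genes, against 52% of all genes tested, with a median of -0.44 beside -0.004 for all genes. That count rests on single mice. It was 5 of 9 without AngII replicate 1 and 5 of 9 without Control replicate 3, with medians of -0.03 and -0.04. It was 9 of 9 without AngII replicate 2 and 9 of 9 without Control replicate 2, with medians of -0.71 and -0.64.

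**Figure D1:**
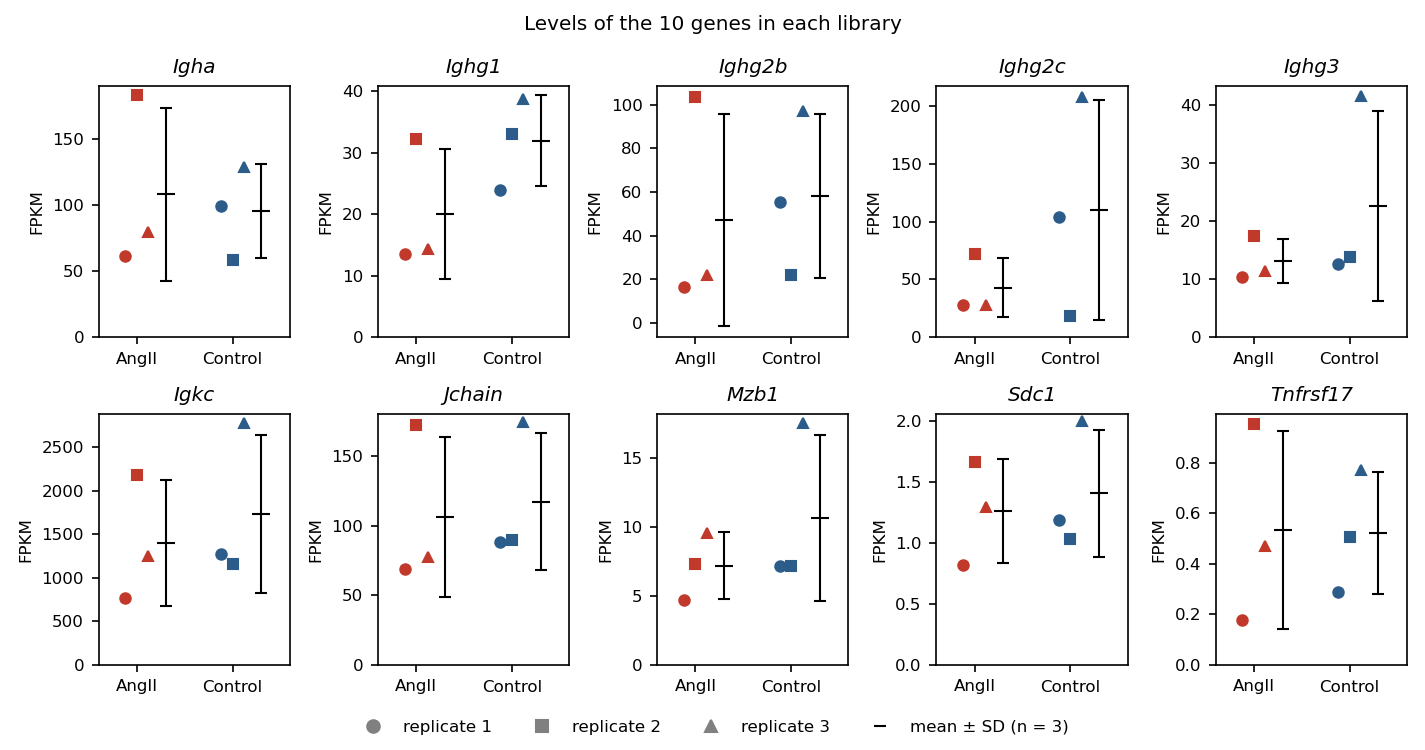
FPKM of the 10 genes (linear axes, 1 panel per gene) in each AngII library and each Control library, with symbols for the replicate number and bars for mean ± SD (n = 3). AngII replicate 2 is the highest AngII library for 9 of 10 genes, Control replicate 3 is the highest Control library for 10 of 10, and the groups overlap in every panel.

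Igha encodes the heavy chain of IgA, the antibody of mucosal surfaces (ENSMUSG00000095079, chromosome 12, 113254830 to 113260236, minus strand). Its level was 61.3, 184 and 79.9 FPKM in AngII replicates 1 to 3, against 99.5, 58.3 and 129 FPKM in Control replicates 1 to 3. AngII replicate 2 was the highest of all libraries and Control replicate 2 the lowest, and the other 4 libraries lay between them. The means were 108 ± 65.8 FPKM in AngII and 95.6 ± 35.5 FPKM in Control (SD, n = 3 each), with a log2 fold change of 0.09 (95% interval -1.07 to 1.24, limma adjusted p = 0.9999). Igha was the only 1 of the 9 with a positive value, and it turned negative without AngII replicate 2 (-0.37) or without Control replicate 2 (-0.23).

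Ighg1 encodes the heavy chain of IgG1, an isotype that T cell help with interleukin 4 favours in mice (ENSMUSG00000076614, chromosome 12, 113325240 to 113330523, minus strand). It lay at 13.5, 32.3 and 14.3 FPKM in AngII libraries, against 24.0, 33.1 and 38.7 FPKM in Control libraries. AngII replicates 1 and 3 were below every Control library, while AngII replicate 2 lay within the Control range. The means were 20.1 ± 10.6 FPKM in AngII and 31.9 ± 7.42 FPKM in Control (SD, n = 3 each), and the log2 fold change of -0.73 (interval -1.60 to 0.14) did not pass (limma unadjusted p = 0.0862, adjusted p = 0.9999). It had the smallest unadjusted p of the 9 genes. Without AngII replicate 2 it was -1.12 (limma unadjusted p = 0.00285, in a fit where 7.75% of all genes had an unadjusted p below 0.05), and without AngII replicate 1 it was -0.52.

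Ighg2c encodes the heavy chain of IgG2c, the form that C57BL/6 mice carry in place of IgG2a and that interferon gamma favours (ENSMUSG00000076612, chromosome 12, 113285325 to 113288932, minus strand). It lay at 28.1, 72.4 and 28.1 FPKM in AngII libraries, against 104, 18.1 and 208 FPKM in Control libraries. The Control mice alone spanned 11.5-fold, with the highest and the lowest of all 6 libraries among them. The log2 fold change was -0.92 with an interval of -3.15 to 1.31 (limma adjusted p = 0.9999), and it was -1.90 without Control replicate 2 and -0.18 without Control replicate 3.

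Ighg2b, the neighbouring gene and the closest copy of Ighg2c, encodes the heavy chain of IgG2b (ENSMUSG00000076613, chromosome 12, 113302965 to 113307933, minus strand). It lay at 16.5, 103 and 22.1 FPKM in AngII libraries, against 55.2, 21.9 and 97.2 FPKM in Control libraries. The 3 AngII mice spanned 6.26-fold and the 3 Control mice 4.44-fold. The log2 fold change was -0.53 (interval -2.54 to 1.48, limma adjusted p = 0.9999). Leaving out AngII replicate 1, 2 or 3 gave -0.03, -1.32 and -0.23, in that order, and leaving out Control replicate 2 or 3 gave -1.09 and -0.04.

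Ighg3 encodes the heavy chain of IgG3, known in mice from responses to polysaccharide antigens (ENSMUSG00000076615, chromosome 12, 113356224 to 113361232, minus strand). It lay at 10.4, 17.5 and 11.4 FPKM in AngII libraries, against 12.6, 13.9 and 41.6 FPKM in Control libraries. Only Control replicate 3 stood well above the others. The log2 fold change of -0.57 (interval -1.71 to 0.57, limma adjusted p = 0.9999) became -0.04 without that library.

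Igkc encodes the constant region of the kappa light chain, which most mouse antibodies carry whatever their heavy chain (ENSMUSG00000076609, chromosome 6, 70726435 to 70726966, plus strand, a single exon). It lay at 767, 2180 and 1244 FPKM in AngII libraries, against 1267, 1154 and 2775 FPKM in Control libraries. The same pair of libraries, AngII replicate 2 and Control replicate 3, held the highest values. The means were 1397 ± 719 FPKM in AngII and 1732 ± 905 FPKM in Control (SD, n = 3 each), with a log2 fold change of -0.32 (interval -1.51 to 0.86, limma adjusted p = 0.9999).

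Jchain encodes the small joining chain that links IgM into pentamers and IgA into dimers for secretion (ENSMUSG00000067149, chromosome 5, 88519809 to 88527891, minus strand). It lay at 69.1, 173 and 77.9 FPKM in AngII libraries, against 88.2, 89.7 and 174 FPKM in Control libraries. AngII replicate 2 and Control replicate 3 were close to each other and above the other 4 libraries. The means were 107 ± 57.4 FPKM in AngII and 117 ± 49.4 FPKM in Control (SD, n = 3 each), with a log2 fold change of -0.19 (interval -1.23 to 0.86, limma adjusted p = 0.9999). Per unit of the summed FPKM of its partners Igha and Ighm, Jchain was at 0.113, 0.158 and 0.0994 in AngII libraries and at 0.122, 0.12 and 0.149 in Control libraries, a narrower spread than that of its level.

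Mzb1 encodes a chaperone of the endoplasmic reticulum that helps assemble and secrete antibody, and it is also made in marginal zone and B1 B cells (ENSMUSG00000024353, chromosome 18, 35647267 to 35649367, minus strand). It lay at 4.67, 7.35 and 9.57 FPKM in AngII libraries, against 7.19, 7.16 and 17.6 FPKM in Control libraries. It was the only 1 of the 10 genes whose highest AngII library was replicate 3 and not replicate 2. The log2 fold change was -0.44 (interval -1.39 to 0.51, limma adjusted p = 0.9999), and -0.04 without Control replicate 3.

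Sdc1 encodes syndecan 1, the surface proteoglycan also called CD138 by which plasma cells are sorted (ENSMUSG00000020592, chromosome 12, 8771323 to 8793715, plus strand). It lay at 0.816, 1.67 and 1.30 FPKM in AngII libraries, against 1.19, 1.03 and 2.00 FPKM in Control libraries. The log2 fold change was -0.09 (interval -0.63 to 0.45, limma adjusted p = 0.9999), the narrowest interval of the 9. Adding 1 FPKM before the logarithm shrinks differences at this low level, which narrows the interval. As plain FPKM its libraries spanned 2.45-fold, against 2.53-fold for Jchain.

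Tnfrsf17 encodes BCMA, the receptor through which plasma cells receive survival signals from APRIL and BAFF (ENSMUSG00000022496, chromosome 16, 11313812 to 11320074, plus strand). It was listed at 0.179, 0.953 and 0.471 FPKM in AngII libraries, against 0.289, 0.507 and 0.770 FPKM in Control libraries. Its mean was below the filter, so it was not tested in the main fit. AngII replicates 2 and 1 were the highest and the lowest of all 6 libraries, 5.34-fold apart, with the Control libraries between them.

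**Figure D2:**
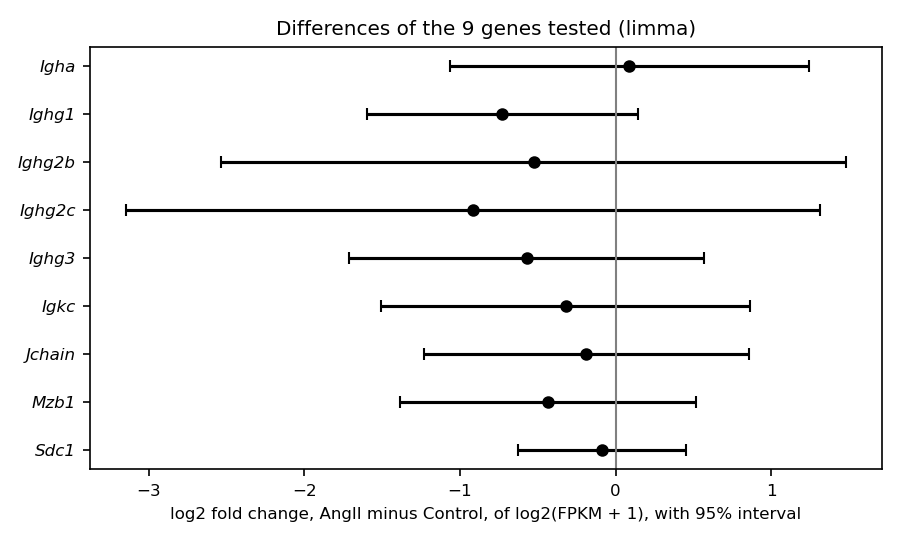
Log2 fold change of log2(FPKM + 1), AngII minus Control, for the 9 genes tested with limma, with the 95% interval (3 libraries per group). Every interval includes 0, and they run from -3.15 to 1.31 for Ighg2c and from -0.63 to 0.45 for Sdc1. Sdc1 lies near 1 FPKM, where adding 1 FPKM shrinks differences on this scale.

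The spread between mice of 1 group was large for these genes. The residual SD of log2(FPKM + 1) had a median of 0.70 over the 9 genes, against 0.13 over all genes tested. Only 2.6% of genes tested had a larger residual SD than Ighg2c and 2.87% than Ighg2b, while 13.7% had a larger one than Sdc1. The level of Sdc1 is near 1 FPKM, so adding 1 FPKM shrinks its SD on this scale. In 9 of 10 genes AngII replicate 2 was the highest AngII library and Control replicate 3 the highest Control library, a combination held by 14.2% of all genes tested. At the other end, AngII replicate 1 was the lowest of all 6 libraries for 8 of 10 genes, and Control replicate 2 for Igha and Ighg2c. With AngII replicate 2 and Control replicate 3 both left out, a choice made after the values were seen, all 9 log2 fold changes were negative with a median of -0.27. None of them passed (0 of 9, limma). Ighg1, Jchain and Ighg3 then had an unadjusted p below 0.05, as 10.5% of all genes did in that fit, and the smallest adjusted p was 0.4578 for Ighg1, at a log2 fold change of -0.97.

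The makeup of the heavy-chain transcript was compared within each library, as shares of summed FPKM over Ighm, Ighe, Igha and the 4 IgG genes. Ighd was not analysed here. Switched heavy chains made up 19.1, 31.1 and 18.1% of this sum in AngII libraries, against 32.2, 17.4 and 33.0% in Control libraries. The means were 22.8 ± 7.19% in AngII and 27.6 ± 8.81% in Control (SD, n = 3 each), and the groups overlapped. Without Control replicate 2 they did not, with means of 22.8% in AngII and 32.6% in Control. With that library left out, 9.89% of all genes tested had groups that did not overlap. The shares overlapped when any other single library was left out. IgM transcript was the larger part in every library, with Ighm at 550, 908 and 704 FPKM in AngII libraries and at 620, 689 and 1042 FPKM in Control libraries. Ighe, the heavy chain of IgE, stayed at or below 0.0592 FPKM in AngII libraries and between 0.128 and 0.342 FPKM in Control libraries. It was below the filter and so not tested in the main fit. Its groups did not overlap, as was so for 6.01% of all genes when no filter was set.

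Within the switched part, Igha had a larger share in each AngII library than in each Control library. It made up 47.2, 44.9 and 51.3% of switched FPKM in AngII libraries, against 33.7, 40.1 and 25.1% in Control libraries. The means were 47.8 ± 3.25% in AngII and 33.0 ± 7.56% in Control (SD, n = 3 each). Put as a ratio, the 4 IgG genes summed to 1.12, 1.23 and 0.95 times Igha in AngII libraries and to 1.97, 1.49 and 2.99 times Igha in Control libraries. These shares are given as a description with no test, because they combine genes chosen with earlier results known. They were picked out after their values were seen, from 30 such quantities, of which 4 had groups that did not overlap. Among all genes tested, 5.84% had groups that did not overlap. The Igha share and the ratio of IgG to Igha are both among the 4, although the ratio only restates the share. The others are the shares of Ighg1 and of Ighe in all heavy-chain FPKM, and Ighe lies near the floor. The difference in Igha share lay between 10.9 and 18.4 percentage points when each library was left out in turn.

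As a share of all heavy-chain FPKM, Ighg1 held 1.99, 2.45 and 1.67% in AngII libraries, against 2.62, 3.96 and 2.49% in Control libraries, and was 1 of the 4 quantities whose groups did not overlap. Shares within IgG overlapped between the groups. Ighg2c held 41.0, 32.1 and 37.0% of IgG FPKM in AngII libraries, against 53.1, 20.8 and 53.9% in Control libraries. Ighg1 held 19.7, 14.3 and 18.9% in AngII libraries, against 12.3, 38.1 and 10.1% in Control libraries, so Ighg1 was the largest IgG share in Control replicate 2 where Ighg2c was in the other Control libraries. Ighg2b led only in AngII replicate 2, at 45.8% of IgG FPKM, and held between 24.1 and 29.1% in the others. The split between Ighg2b and Ighg2c carries the uncertainty of their shared sequence.

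**Figure D3:**
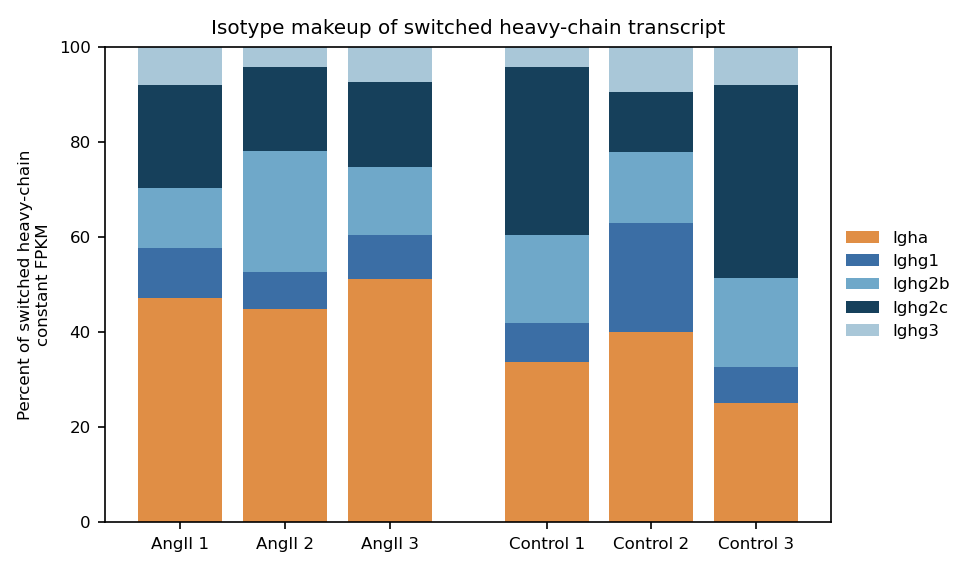
Percent of switched heavy-chain constant FPKM that falls to Igha and the 4 IgG genes in each AngII library and each Control library (stacked bars, 1 library each, summing to 100%). Igha, at the base, takes 44.9 to 51.3% in AngII libraries and 25.1 to 40.1% in Control libraries, and Ighg2c is largest in Control replicates 1 and 3.

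The kappa light chain outweighed the lambda chain Iglc2 in every library. The lambda constant genes Iglc1 and Iglc3 were not analysed here, so the ratios below do not cover all lambda transcript. Igkc was 29.5, 45.6 and 25.9 times Iglc2 in AngII libraries, against 51.6, 31.6 and 40.4 times in Control libraries. Iglc2 lay at 26.0, 47.8 and 47.9 FPKM in AngII libraries and at 24.5, 36.5 and 68.8 FPKM in Control libraries (limma log2 fold change -0.02, adjusted p = 0.9999). Variable segments showed the same high libraries: summed Ighv segments were at 611, 1617 and 970 FPKM in AngII libraries and at 987, 840 and 1444 FPKM in Control libraries. Summed Igkv segments were at 841, 2336 and 1328 FPKM in AngII libraries and at 1386, 1348 and 2800 FPKM in Control libraries.

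B cell genes followed a different order of libraries from the switched genes. The 15 B cell markers, none of them at 0 in all libraries, summed to 90.4, 101 and 219 FPKM in AngII libraries and to 90.2, 123 and 230 FPKM in Control libraries. Cd79a and Cd79b, the signalling chains of the B cell receptor, together lay at 21.2, 24.9 and 71.3 FPKM in AngII libraries and at 22.8, 32.3 and 70.4 FPKM in Control libraries. For 14 of 15 B cell markers AngII replicate 2 was below AngII replicate 3, as it was for 1 of the 10 genes described here, Mzb1. Control replicate 3 was the highest Control library for 15 of 15. AngII replicate 2 thus had high antibody transcript beside low B cell receptor transcript, while Control replicate 3 had both.

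**Figure D4:**
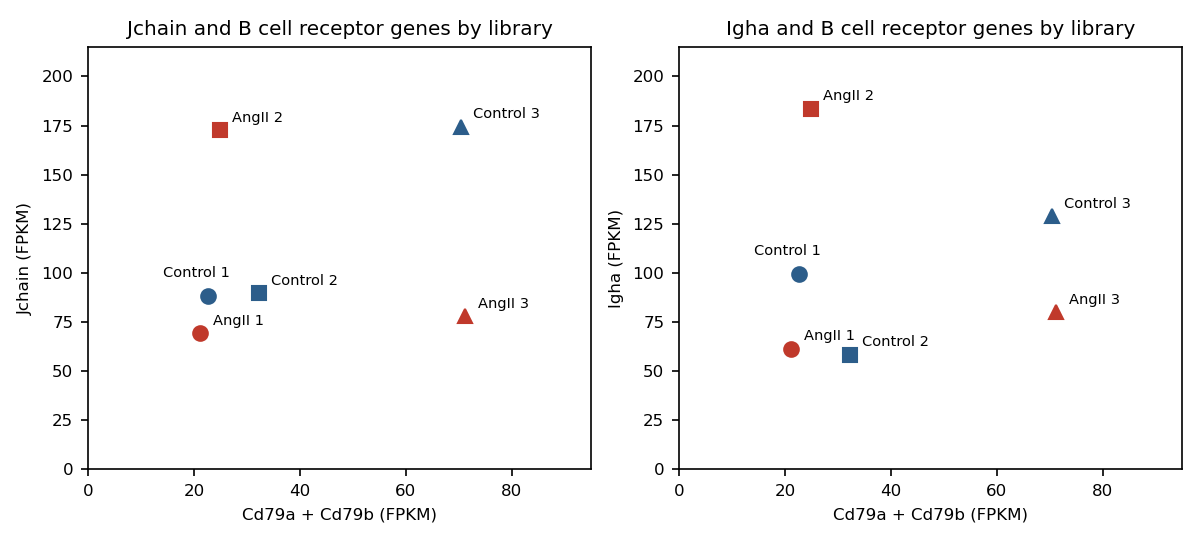
Jchain (left) and Igha (right) in FPKM against the summed FPKM of the B cell receptor genes Cd79a and Cd79b, with 1 labelled point per library (AngII red, Control blue). AngII replicate 2 is high for Jchain at 173 FPKM with 24.9 FPKM of Cd79a and Cd79b, and AngII replicate 3 is at 77.9 FPKM with 71.3 FPKM.

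Dividing by Cd79a and Cd79b widened the range within AngII and mostly narrowed it within Control. Per 100 FPKM of these, Jchain was at 326, 693 and 109 FPKM in AngII libraries and at 387, 278 and 248 FPKM in Control libraries, and its highest library was 6.34-fold above its lowest, against 2.53-fold for its plain level. Over all 6 libraries Mzb1 was the only 1 of the 10 with a narrower range on this scale, at 2.36-fold against 3.76-fold for its level. Within AngII the range was narrower for 0 of 10 genes, and within Control for 8 of 10. For Ighg3 the 3 Control libraries came to within 1.38-fold, against 3.30-fold for its level, and for Jchain to within 1.56-fold, against 1.98-fold. The exact permutation p for the difference on this scale lay between 0.4 and 1 over the 10 genes (two-sided, smallest possible 0.1).

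Markers of other spleen cells differed by list in which libraries were highest. The 7 splenic macrophage markers summed to 1031, 2012 and 979 FPKM in AngII libraries, with replicate 2 highest, and to 758, 1130 and 1336 FPKM in Control libraries, with replicate 3 highest. Hmox1 alone gave 988 FPKM in AngII replicate 2 and 593 FPKM in Control replicate 3. These 2 libraries each led their groups for 5 of the 7 markers, while Adgre1 and Cd5l were highest in Control replicate 2. The 8 plasmacytoid dendritic cell markers, a cell type that can also express Jchain and Mzb1, summed to between 45.1 and 57.2 FPKM in AngII and between 44.6 and 58.5 FPKM in Control. This sum joins markers of unlike order. In Control replicate 3, Siglech had its highest value, 5.04 FPKM, and Pacsin1 its lowest, 14.1 FPKM. AngII replicate 2 and Control replicate 3 each led their groups for 1 of the 8, Lair1. Neutrophil markers summed to 20.4, 64.4 and 69.2 FPKM in AngII libraries and to 7.08, 6.67 and 36.3 FPKM in Control libraries. The 2 CD8 T cell markers had their lowest sum in AngII replicate 2, 9.73 FPKM, and their highest Control sum in replicate 3, 11.8 FPKM. The 3 NK cell markers had their highest sum in Control replicate 2, 66.4 FPKM. The 3 platelet markers summed to 186, 139 and 164 FPKM in AngII libraries and to 70.7, 84.9 and 220 FPKM in Control libraries, with Control replicate 3 highest. No marker of these lists was at 0 in all 6 libraries. The part of these cells in the values of the switched genes was not tested.

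Other genes of the antibody-secreting programme were counted from lists, and none of them passed the test in either direction. Of 6 regulators of plasma cell fate, 6 were tested and 0 passed. Xbp1, the factor that expands the secretory pathway, averaged 42.4 ± 2.24 FPKM in AngII and 45.4 ± 3.36 FPKM in Control, and Prdm1, which encodes the plasma cell repressor BLIMP-1, averaged 3.72 ± 0.266 FPKM in AngII and 3.75 ± 0.966 FPKM in Control (SD, n = 3 each). Activated T cells use both. Pou2af1, a coactivator of immunoglobulin promoters in B cells, lay at 12.7, 15.6 and 20.2 FPKM in AngII libraries and at 14.4, 14.1 and 21.3 FPKM in Control libraries, with replicate 3 highest in each group.

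Of 16 genes of the plasma cell endoplasmic reticulum, 15 were tested and 0 passed, with 11 of 15 negative and a median log2 fold change of -0.09. Derl3, which helps clear misfolded protein, was at 0.636, 1.06 and 0.640 FPKM in AngII libraries and at 0.873, 0.982 and 2.08 FPKM in Control libraries. AngII replicate 2 and Control replicate 3 led their groups for Derl3 and 3 others of the 16 genes, Txndc5, Sdf2l1 and Lman1, and not for the other 12. Ssr4, a subunit of the translocon complex, was the only 1 of the 15 whose groups did not overlap, where 5.84% of all genes did not. It lay at 65.5, 75.3 and 69.6 FPKM in AngII libraries and at 75.4, 81.2 and 78.1 FPKM in Control libraries (log2 fold change -0.16, limma adjusted p = 0.9999). Hspa5, the chaperone BiP that every cell uses, averaged 218 ± 32.9 FPKM in AngII and 238 ± 14.3 FPKM in Control (SD, n = 3 each). In the list of the BAFF and APRIL system and plasma cell surface, 7 of 8 genes were tested and 0 passed. The ligand gene Tnfsf13b, encoding BAFF, was below the filter at 0.289, 0.316 and 0.339 FPKM in AngII libraries and at 0.235, 0.261 and 0.210 FPKM in Control libraries. It was the only 1 of the 8 whose groups did not overlap, where 6.01% of all genes did not when no filter was set. The other ligand gene Tnfsf13, encoding APRIL, was at 2.88, 6.61 and 2.32 FPKM in AngII libraries and at 2.44, 2.88 and 3.85 FPKM in Control libraries. Class switch and germinal centre genes had 4 of 9 tested and 0 passed.

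Genes outside the antibody programme with the most similar profile over the 6 libraries were Batf, Kctd12, Ccl22, Apoc1 and Chchd5. Likeness was the mean absolute difference between standardised log2(FPKM + 1) profiles, with the mean profile of the 9 genes as the template, among 11842 genes. The differences were 0.119 for Batf, 0.143 for Kctd12, 0.148 for Ccl22, 0.154 for Apoc1 and 0.173 for Chchd5, in units of 1 SD. From lowest to highest library they spanned between 1.11-fold, for Chchd5, and 2.03-fold, for Ccl22. The template gene with the narrowest span, Sdc1, covered 2.45-fold. Batf, a transcription factor of T and B cells, lay at 32.2, 37.1 and 34.1 FPKM in AngII libraries and at 36.1, 34.3 and 39.8 FPKM in Control libraries. The 100 most similar genes held 7 immunoglobulin constant genes or segments, which make up 1.44% of the genes ranked, and 4 of the 100 were template genes. The 2 counts overlap: Igkc and Ighg2b are in both. As template genes they helped to set the profile, so their likeness to it is partly built in. The 100 most similar genes held none of the 15 B cell markers, which make up 0.127% of the genes ranked. At that share, 100 genes would mostly hold none.

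In the authors' deposited table, 0 of the 10 genes were significant, against 37 of 14720 loci tested there (0.251%). That table joins Ighg2b, Ighg2c and Ighm into 1 row and lists Jchain under the older name Igj. The smallest p in the authors' deposited table was 0.0121 for Mzb1 and 0.01705 for Igkc, each with a q of 0.999918. For the joined row, p was 0.14525 in the authors' deposited table, and for Igha, Ighg1 and Ighg3 it was 0.189, 0.6318 and 0.7385. Its 2 conditions are named only by number, so no direction was taken from it.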

How the data were processed

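Per the labels' protocols, RNA of isolated splenic CD4+ T cells was made into Illumina TruSeq libraries. Per the submitters' processing notes, Trimmomatic 0.32, TopHat2 2.1.1, Cuffdiff and the build GRCm38.p3 were used. Neither labels nor headers name the annotation or the program that wrote each library's values. Each library came with FPKM values as deposited by the authors, and a table of their own comparison with a p-value and q-value per locus. FPKM is not a count, so log2(FPKM + 1) was tested with limma 3.58.1 in R 4.3.3 (eBayes with trend, two-sided, Benjamini-Hochberg over all genes tested), with no further scaling and a filter of a mean of 1 FPKM. An exact 0 in such files can be a failed estimate. The code was tested on simulated data. Tables were made with Python 3.11.15, pandas 2.3.3 and numpy 2.4.6, figures with matplotlib 3.10.9. Symbols came from GENCODE M21 by identifier for 37605 of 39171 rows. No 2 libraries held the same values. The p-values set the group difference against the spread between libraries of a group. With 1 library per mouse, that spread does not separate the mouse from cell isolation or library preparation. The genes and lists were chosen with earlier results of these data known. The genes named were all 10, those of the lists a result turns on, and the 5 of most similar profile. Alternatives were other pseudocounts (0.1 and 5), no filter or a mean of at least 5 FPKM, median-of-ratios and quantile scaling, eBayes without trend, the replicate number as a block, division by Cd79a and Cd79b, and leaving out libraries.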

Additional observations from a re-analysis of the deposited data

How the results depend on the processing

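No alternative brought any of the 10 genes past the threshold. With no filter on low values Tnfrsf17 was fitted as well, and 0 of 10 passed. Over 134 values of the other 9 genes with a limma adjusted p, 0 passed and the smallest was 0.4578. The 9 values relative to Cd79a and Cd79b, where an exact permutation test cannot go below 0.1, are not among them. The count of all genes past the threshold was 4, and 7 with no filter on low values; it lay between 4 and 9 when single libraries were left out, at 9 when AngII replicate 3 was dropped, 8 when Control replicate 1 was dropped and 7 when Control replicate 3 was dropped. The replicate numbers did not pair the libraries (correlations of deviations of -0.080, -0.023 and -0.035 for numbers 1, 2 and 3, and no library correlated best with its own number). With the number as a block 3 genes passed, and 0 of the 9 genes tested. The median log2 fold change over the 9 genes lay between -0.71 and -0.03 with single libraries left out, and between -0.48 and -0.32 with the other pseudocounts. Values that turned sign, none of them past the threshold, were Igha, Igkc, Jchain and Sdc1. Igha was at -0.23 with Control replicate 2 left out, at -0.37 with AngII replicate 2 left out, and at -0.12 with AngII replicate 2 and Control replicate 3 both out. Igkc was at 0.078, Jchain at 0.13 and Sdc1 at 0.082 when Control replicate 3 was omitted. The same genes stood at 0.046, 0.059 and 0.061 when AngII replicate 1 was omitted. The ranges over single libraries left out were -0.37 to 0.41 for Igha, -0.71 to 0.078 for Igkc, -0.60 to 0.13 for Jchain and -0.22 to 0.082 for Sdc1. The difference in switched share lay between -9.87 and -2.05 percentage points. Ighd was not analysed here, so every heavy-chain share above leaves it out. Each gene had 1 row, so a sum over rows was not run. With 3 mice a group and the spread of these genes, the intervals span changes of more than 1 on the log2 scale in either direction for Igha, Ighg2b and Ighg2c.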
